A study of Homo sapiens with 2 samples.

Results

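The enzymes described here make cytosolic acetyl-CoA and turn it into fatty acids. They are 6 genes, ACSS2, ACLY, FASN, SCD, ELOVL6 and FADS1, found as every probe set that the platform annotation pairs with one of these symbols. All 6 were measured, by 7 probe sets of the 16098 named ones, among 14884 named genes. RNA came from AsPC-1, an established human pancreatic adenocarcinoma cell line, grown in 3-dimensional culture under a collagen gel overlay in RPMI medium with serum and antibiotics. The compressed culture was kept under a compressive stress of 2.9 mmHg for 24 h, and the uncompressed culture was kept without it for the same 24 h. Each was measured on 1 GeneChip Human Gene 2.0 ST array, which reads a level per probe set along the whole transcript. The comparison addressed how these pancreatic cancer cells change their transcripts when compressed.

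Fatty acid synthesis starts from acetyl-CoA outside the mitochondria. ATP-citrate lyase (ACLY) makes it from citrate exported from the mitochondria, and acetyl-CoA synthetase ACSS2 makes it from acetate, a route known to support cancer cells that are short of oxygen or lipid. FASN builds palmitate from acetyl-CoA and malonyl-CoA, after which ELOVL6 lengthens it to stearate, SCD introduces the double bond that gives oleate and palmitoleate, and FADS1 acts on polyunsaturated chains to give arachidonate. The SREBP transcription factors, released from the endoplasmic reticulum when sterols are low, are known activators of all of these genes.

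The start regions of ACSS2 and SCD, the members with the largest differences below, and of ACLY, the member without a positive one, are shown because the 3 genes share known regulators. The windows run from 250 bases before to 50 bases after an annotated start, are from RefSeq (GRCh38.p14) and are written 5′ to 3′ on the strand of the gene. Windows were available for 5 members, with 2 starts each for ACSS2 and ACLY, and FASN is named only. Capitals mark matches on either strand to a sterol regulatory element core (TCACNCCAC, or its variant TCACNCGAC), the CCAAT box (CCAAT), the GC box (GGGCGG) or the E-box (CACGTG). ACSS2 is shown at its downstream start (chr20:34876362-34876661, plus strand), SCD at its start (chr10:100346983-100347282, plus strand) and ACLY at its upstream start (chr17:41918973-41919272, minus strand).
ACSS2: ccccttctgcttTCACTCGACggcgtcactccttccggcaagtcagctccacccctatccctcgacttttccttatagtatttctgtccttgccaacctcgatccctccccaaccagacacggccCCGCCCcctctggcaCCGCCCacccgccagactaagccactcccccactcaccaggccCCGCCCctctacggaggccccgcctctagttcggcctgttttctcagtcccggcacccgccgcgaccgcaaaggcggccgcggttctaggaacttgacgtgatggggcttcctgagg
SCD: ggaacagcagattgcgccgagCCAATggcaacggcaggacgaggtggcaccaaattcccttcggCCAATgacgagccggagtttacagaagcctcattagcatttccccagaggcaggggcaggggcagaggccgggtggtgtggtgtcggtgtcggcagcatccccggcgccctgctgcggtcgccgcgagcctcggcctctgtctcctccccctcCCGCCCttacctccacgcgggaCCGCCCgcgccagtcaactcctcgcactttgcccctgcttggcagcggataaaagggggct
ACLY: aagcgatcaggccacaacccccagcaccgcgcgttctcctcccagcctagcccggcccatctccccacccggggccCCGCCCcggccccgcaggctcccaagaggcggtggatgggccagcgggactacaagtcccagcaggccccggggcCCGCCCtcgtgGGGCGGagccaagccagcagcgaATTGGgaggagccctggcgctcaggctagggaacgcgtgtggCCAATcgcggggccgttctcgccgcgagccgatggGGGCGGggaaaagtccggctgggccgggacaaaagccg
The ACSS2 window held 1 match to TCACNCGAC, beginning 238 bases before the start, and 3 GC boxes. Among all 35116 windows of this length, 0.308% held TCACNCGAC and 1.13% held TCACNCCAC. The upstream start of ACSS2 held 1 CCAAT box and 1 GC box and no match to either sterol element. SCD held 2 CCAAT boxes, 229 and 186 bases before its start, and 2 GC boxes. ACLY held 2 CCAAT boxes and 4 GC boxes at either start, and its windows overlap, so these are the same sites seen from both starts. Neither SCD nor either start of ACLY held a match to either sterol element. A CCAAT box was found in 34.6% of all windows and a GC box in 44.95%, so these matches are common. The ELOVL6 window held 1 GC box and the FADS1 window 2, and neither held a CCAAT box or a sterol element. No window of a member held the E-box, which 7.26% of all windows hold. No capitals of different motifs overlap in the 3 windows shown. A match describes letters and is not evidence of binding.

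Levels are log2 RMA signals, and every difference is the compressed minus the uncompressed level on that scale. With 1 array per culture there is no replicate check and neither a test nor a p-value, the number of arrays limits the precision, and "higher" and "lower" describe these 2 arrays only. Genes were kept where their mean level was at or above the median over named genes, 4.79, which kept 7442 genes and all 6 members. A size of 1.5-fold (0.58 on the log2 scale) was used to count genes. Of the kept genes, 294 were at least 1.5-fold higher (3.95%) and 83 at least 1.5-fold lower (1.12%), with a median difference of 0.01 and quartiles of -0.15 and 0.18. Across 140 protein-coding genes with exactly 2 kept probe sets whose differences were not identical, the SD of a probe set's difference was 0.19, which covers disagreement between probe sets and not variation between cultures. Fewer cells of a kind and less RNA per cell cannot be told apart in such bulk samples. The epithelial keratins KRT18 and KRT19 were at 11.71 and 10.79 in the compressed culture and at 11.54 and 10.78 in the uncompressed culture. Of the epithelial and ductal list, 8 of 10 markers had a named probe set and 5 were kept, with differences between -0.34 and 0.18 and a median of 0.01. EPCAM, an epithelial adhesion molecule gene, had the lowest of these differences, at 10.43 in the compressed and 10.77 in the uncompressed culture, and CEACAM6 and KRT8 differed by -0.01 and 0.08. KRT20 and CLDN4, with means below the floor, differed by -0.53 and -0.08. KRT7, a ductal keratin, was below the floor on both arrays, at 3.78 in the compressed and 3.36 in the uncompressed culture.

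Under compression 2 of the 6 enzymes, ACSS2 and SCD, exceeded their uncompressed level by at least 1.5-fold, and 0 were that much lower. Of all kept genes, 3.95% were that much higher and 1.12% that much lower. SCD was close to that size and fell below it under some of the other settings given below. FASN, ELOVL6 and FADS1 had smaller positive differences and ACLY was nearly level. The median difference over the 6 was 0.33 (1.26-fold), beside 0.01 over all kept genes, and 5 of 6 differences were positive, beside 50.8% of kept genes. The 6 were chosen with earlier results of these data known, so this contrast describes them and is not independent support. Without ACSS2 the median of the other 5 was 0.27. The plot of levels per array shows the spacing of each pair.

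**Figure D1:**
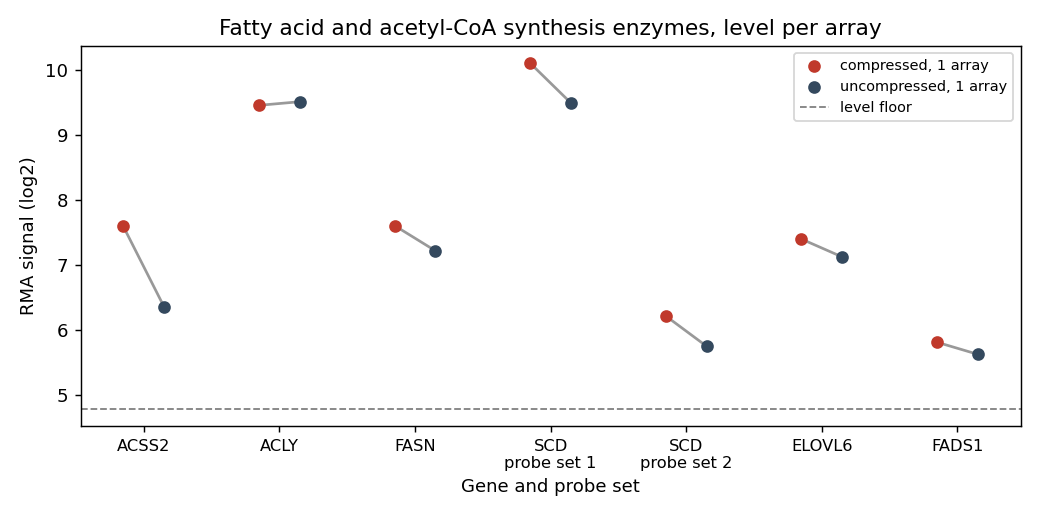
Log2 RMA signal (y axis) of each probe set of the 6 enzymes (x axis), with the compressed array in red on the left and the uncompressed array in dark blue on the right of each pair. A grey line joins the values of a probe set, and the dashed line is the level floor of 4.79. The ACSS2 pair is the steepest, at 7.60 and 6.36, and the ACLY pair is the only one whose compressed value is not the upper one. Heights of different probe sets cannot be compared.

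The acetyl-CoA step held the widest contrast. ACSS2 read 7.60 in the compressed culture and 6.36 in the uncompressed culture. It was 2.36-fold higher (difference 1.24), and 35 of the 7442 kept genes had a larger difference. It was also the 1 member at least 2-fold higher, a size that 0.954% of kept genes reached. ACLY read 9.46 in the compressed culture and 9.52 in the uncompressed culture. Its difference of -0.06 was smaller than the 0.19 by which probe sets of 1 gene vary, and 38.9% of kept genes had a lower difference. Relative to ACLY, ACSS2 differed by 1.29 on the log2 scale, so the transcripts of the enzymes that draw on acetate and on citrate changed unequally between these arrays.

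FASN, the multifunctional synthase, read 7.61 in the compressed culture and 7.23 in the uncompressed culture. Its difference of 0.39 (1.31-fold) was below the counting size, and 90.2% of kept genes had a lower difference.

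SCD, the stearoyl-CoA desaturase, was the one member with more than 1 probe set. The brighter probe set read 10.11 in the compressed culture and 9.50 in the uncompressed culture, 1.53-fold higher (difference 0.61). The dimmer read 6.22 in the compressed culture and 5.76 in the uncompressed culture, 1.38-fold higher (difference 0.46). Both probe sets were higher under compression. The gap between their differences was below 0.19, the SD of 1 probe set's difference, and a gap between 2 probe sets varies more than that. The mean of both was 0.54 (1.45-fold), and the brighter probe set was at 0.54 after quantile normalization was repeated over the named probe sets, so SCD lay at the counting size and on either side of it depending on the setting. It exceeded FASN by 0.23 on the log2 scale of differences.

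The elongase ELOVL6 read 7.41 in the compressed culture and 7.13 in the uncompressed culture, a difference of 0.27 (1.21-fold). The polyunsaturated desaturase FADS1 read 5.82 in the compressed culture and 5.63 in the uncompressed culture, a difference of 0.19 (1.14-fold), which was no larger than the spread between probe sets of 1 gene. Of the kept genes, 83.4% had a lower difference than ELOVL6 and 75.1% a lower one than FADS1. Both lie in the upper part of the distribution without standing outside its bulk.

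**Figure D2:**
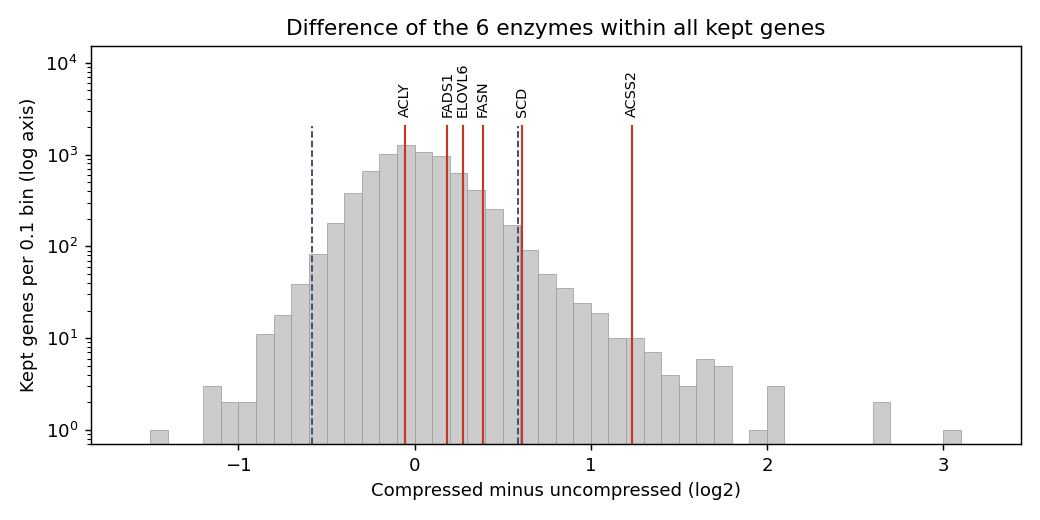
Number of kept genes (y axis, log scale) in bins of 0.1 of the compressed minus uncompressed difference (x axis, log2). Red lines mark the 6 enzymes and dashed lines the 1.5-fold size in each direction. ACSS2, at 1.24, lies in the sparse upper tail, SCD, at 0.61, just beyond the 1.5-fold line, and the other 4 enzymes within the bulk.

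Genes that act around these enzymes were grouped into 10 lists, of 192 genes in all, of which 114 had a named probe set and 90 were kept. Of those 90, 8 were at least 1.5-fold higher, 6 of them in sterol synthesis, and 0 were lower. Outside sterol synthesis this leaves 2 of 79, near the 3.95% of all kept genes. In each list, "higher" and "lower" count genes past 1.5-fold. These lists hold no member of the 6, and the plot of differences by list shows each gene. The lists too were chosen with earlier results of these data known, so their counts and medians are descriptions only.

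The supply of acetyl-CoA, citrate and NADPH had 9 kept genes of 19, of which 1 was higher and 0 lower, with a median of 0.00. The higher one was ACAT2, the cytosolic thiolase that feeds acetyl-CoA into the mevalonate pathway, at 8.37 in the compressed and 7.59 in the uncompressed culture (1.71-fold). ACAT1, the mitochondrial thiolase, had the lowest difference, -0.23. The subunit genes of pyruvate dehydrogenase, PDHA1, PDHB and DLAT, differed by 0.15, 0.00 and -0.11. PDHB was among the 182 kept genes with exactly equal values on both arrays. The mitochondrial paralogs of ACSS2 had negative differences. ACSS1 read 4.39 in the compressed and 4.70 in the uncompressed culture, and ACSS3 read 2.92 in the compressed and 3.19 in the uncompressed culture. All 4 of these values lie below the floor. SLC25A1, the citrate exporter, and ME1, the cytosolic malic enzyme, had no named probe set and were not analysed here.

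Malonyl-CoA formation and the mitochondrial chain synthesis route had 7 kept genes of 12, with 0 higher, 0 lower and a median of 0.00. ACACA, the cytosolic acetyl-CoA carboxylase that makes the malonyl-CoA used by FASN, read 7.68 in the compressed and 7.56 in the uncompressed culture, a difference of 0.11. ACACB, the mitochondrial-surface carboxylase, was below the floor at 4.01 in the compressed and 4.30 in the uncompressed culture. MID1IP1, an activator of acetyl-CoA carboxylase, had the highest difference, 0.26, and MECR, the enoyl reductase of mitochondrial chain synthesis, the lowest, -0.53.

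Other elongases, desaturases and their electron carriers had 7 kept genes of 18, with 0 higher, 0 lower and a median of -0.07. ELOVL5, which elongates polyunsaturated chains, was the highest at 7.08 in the compressed and 6.63 in the uncompressed culture (difference 0.45), and ELOVL1 differed by 0.27. FADS2, which acts upstream of FADS1, differed by 0.17, close to the 0.19 of FADS1, and read 4.93 in the compressed and 4.77 in the uncompressed culture, the second of these below the floor. The paralog SCD5 was below the floor at 4.18 in the compressed and 4.48 in the uncompressed culture. The electron donors that serve the desaturases had negative differences, -0.41 for cytochrome b5 (CYB5A) and -0.33 for its reductase (CYB5R3), while SCD was higher.

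Downstream use of fatty acids showed small differences in both directions. Uptake and activation had 4 kept genes of 19 and 0 higher or lower, with a median of 0.12. ACSL1, a long-chain acyl-CoA synthetase, was highest at 0.58, just under the counting size and past it after loess correction, and FABP5, a fatty acid carrier, was exactly equal on both arrays. Glycerolipid assembly and lipid droplets had 14 kept genes of 28, 7 positive and 7 negative, with 0 higher, 0 lower and a median of -0.04. LPIN1, a phosphatidate phosphatase, and GPAT3, a glycerol-phosphate acyltransferase, differed by 0.54 and 0.52. DGAT1, which completes triacylglycerol, and the droplet coat gene PLIN2 differed by -0.36 and -0.35. Fatty acid oxidation had 9 kept genes of 27, 6 of them negative, with 0 higher, 0 lower and a median of -0.17. The mitochondrial thiolase gene ACAA2 and the carnitine palmitoyltransferase gene CPT2 were lowest at -0.55 and -0.50, CPT1A, which admits fatty acids to mitochondria, differed by -0.19, and the isomerase gene ECI2 was highest at 0.17.

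**Figure D3:**
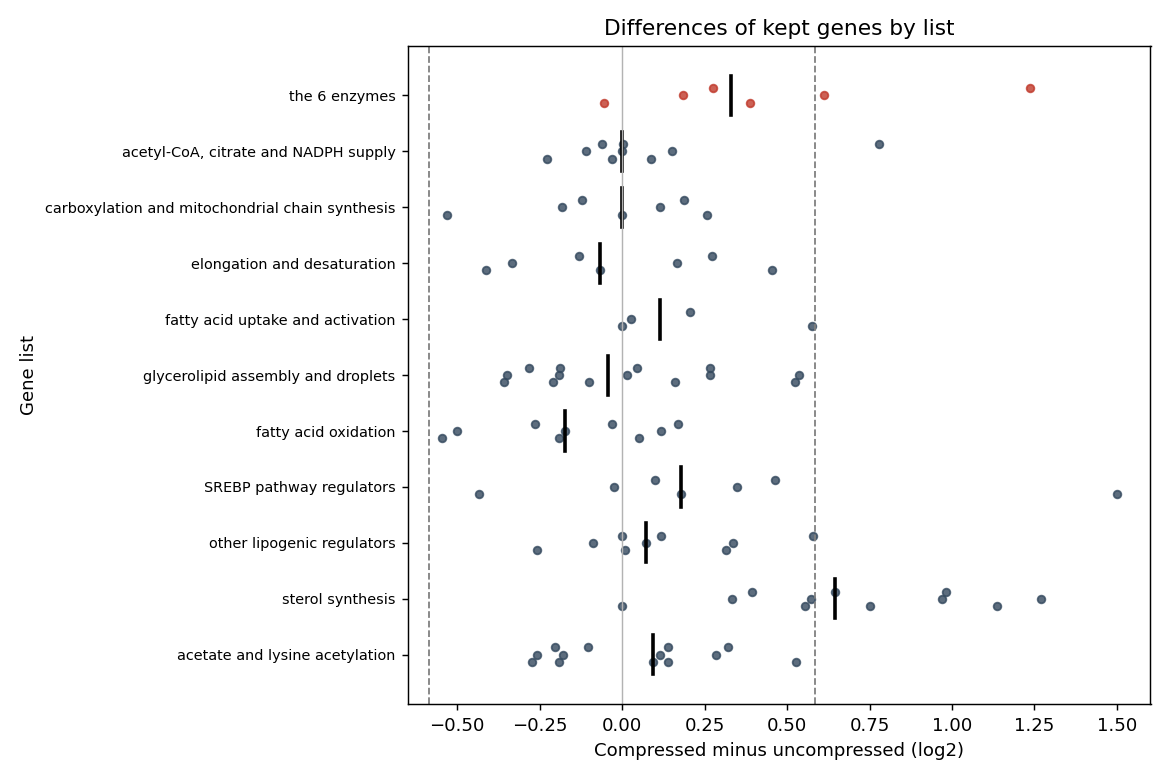
Compressed minus uncompressed difference (x axis, log2) of each kept gene, 1 point per gene, for the 6 enzymes (red, top row) and 10 lists around them (dark blue). Black bars are medians and dashed lines the 1.5-fold size; the vertical scatter has no meaning. The sterol synthesis list has the highest median, 0.65, followed by the 6 enzymes at 0.33 and the SREBP regulators at 0.18.

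Among regulators of the SREBP pathway, 1 of 7 kept genes of 12 was higher and 0 were lower, with a median of 0.18. INSIG1, which retains the SREBP complex in the endoplasmic reticulum and is itself an SREBP target, read 9.04 in the compressed and 7.54 in the uncompressed culture (2.83-fold higher). The gene of the SREBP form known for sterol synthesis, SREBF2, read 6.76 in the compressed and 6.30 in the uncompressed culture (difference 0.46). SREBF1, whose products are known chiefly for fatty acid genes, read 5.66 in the compressed and 5.57 in the uncompressed culture (difference 0.10). SCAP, the escort protein gene, differed by -0.02 and INSIG2 by 0.18. MYLIP, a ubiquitin ligase gene that limits the LDL receptor, was lowest at -0.43. These are transcript levels, and cleavage of SREBP proteins was not measured here. Of 9 kept other lipogenic regulators of 24, 0 were higher or lower, and the median was 0.07. TRIB3, a stress-induced pseudokinase gene, was highest at 0.58, just under the counting size, and BCKDK, a kinase gene of branched-chain amino acid breakdown, lowest at -0.26. PPARG differed by 0.01, and MLXIPL, which encodes the carbohydrate-responsive factor ChREBP, was below the floor at 4.32 in the compressed and 4.05 in the uncompressed culture.

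Sterol synthesis, which draws on the same acetyl-CoA, had 6 of 11 kept genes of 19 higher and 0 lower, with a median of 0.65. The 4 with the largest differences were HMGCS1 (2.41-fold), SQLE (2.20-fold), IDI1 (1.98-fold) and MSMO1 (1.96-fold), and the difference of ACSS2, 1.24, fell between those of HMGCS1, 1.27, and SQLE, 1.14. SCD, at 0.61, and FASN, at 0.39, were below that list's median. Whether the 6 enzymes and the sterol genes differ was not tested.

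Acetyl-CoA made by ACSS2 and ACLY is also the donor for lysine acetylation. Of 13 kept acetyltransferase and deacetylase genes of 14, 0 were higher or lower, and the median was 0.09. The acetyltransferase gene CREBBP was highest at 0.53 and its relative EP300 differed by 0.29. SIRT3, a mitochondrial deacetylase gene, was lowest at -0.27, and SIRT1 differed by 0.32.

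Of 27 markers of other cell types, 14 had a named probe set and 3 of these were kept. Adipocyte markers PLIN1, LEP and LPL read between 2.67 and 4.40 in the compressed culture and between 2.74 and 4.47 in the uncompressed culture. CFD, also on that list, read 6.92 in the compressed and 7.18 in the uncompressed culture. The summed signal of the 4 named adipocyte markers of 6 was 7.28 in the compressed and 7.50 in the uncompressed culture on the log2 scale. CFD was the only kept marker of that list. The 3 named hepatocyte markers of 5 summed to 5.60 in the compressed and 5.94 in the uncompressed culture, and the 3 named endothelial markers of 4 to 5.10 in the compressed and 5.27 in the uncompressed culture. LUM, 1 of 2 named fibroblast markers of 7, read 9.39 in the compressed and 9.75 in the uncompressed culture, while DCN was at 1.82 in the compressed and 1.79 in the uncompressed culture. CD68, which is also a lysosomal protein gene of many cells, was 1.75-fold higher at 9.26 in the compressed and 8.45 in the uncompressed culture, while the other named leukocyte marker of 5, CD14, was at 3.71 in the compressed and 3.65 in the uncompressed culture. Like ACSS2 and the brighter probe set of SCD, CD68 was at least 1.5-fold higher, as were 3.95% of kept genes. A link between them was not tested and cannot be tested with 2 arrays. AsPC-1 is a cell line, and the part of other cells in the result was not tested.

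The order of the 6 enzymes by difference was ACSS2, SCD, FASN, ELOVL6, FADS1 and ACLY, and the gaps between SCD, FASN, ELOVL6 and FADS1 were 0.23, 0.11 and 0.09 on the log2 scale, beside an SD of 0.19 for a probe set's difference. The gap between ACSS2 and SCD was 0.62. FADS1 and ACLY lay 0.24 apart. A gap between genes varies more than the difference of a probe set, so 0.19 understates the spread of these gaps. The gaps of 0.23 and 0.24 therefore cannot be read as exceeding the disagreement between probe sets. All 6 signs held under loess correction and repeated quantile normalization, the settings that can change each difference by its own amount. The level filters cannot change a difference, the mean of probe sets can change only that of SCD, and median centring shifts all by 0.01, so those settings say nothing about the other signs. The stricter level filter removed FADS1.

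**Figure D4:**
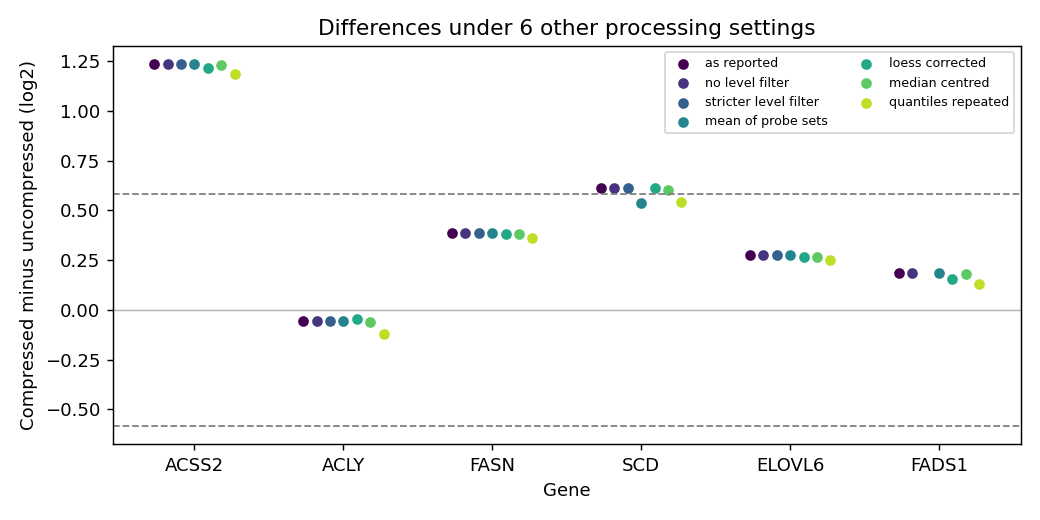
Compressed minus uncompressed difference (y axis, log2) of each enzyme (x axis) as reported and under 6 other settings, 1 point each; dashed lines mark the 1.5-fold size. ACSS2 stays between 1.19 and 1.24 and ACLY between -0.12 and -0.05, while SCD, between 0.54 and 0.62, falls on both sides of the upper line. FADS1 has no point under the stricter level filter, which removed it.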

How the data were processed

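Total RNA of 1 compressed and 1 uncompressed AsPC-1 culture was hybridised to 2 arrays. The submitters' processing notes name RMA and the Transcriptome Analysis Console for the log2 values deposited by the authors, and their versions and the build were not given in the sources used here. RMA corrects background, equalises the arrays' distributions and summarises probes, so a change common to all transcripts is lost and changes near background shrink. The table held 53617 probe sets, with medians of 3.72 on the compressed and 3.75 on the uncompressed array. Whether a dim probe set exceeded background is unknown.

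The platform annotation named 16098 probe sets, and RefSeq (GRCh38.p14) gave current symbols for all of them. Per gene, the probe set with the highest mean was used. Groups came from the treatment labels. Differences were compressed minus uncompressed, with no test. The members and lists were chosen with earlier results of these data known. Named genes are the 6 members, up to 4 genes per direction past 1.5-fold or else the highest and lowest of each list, and a fixed set of pathway genes; others are further list members. Alternatives were other level filters (none, or the 75th percentile), the mean of probe sets, loess (span 0.3), median centring, repeated quantile normalization, stricter (2-fold) and looser sizes, the mean for the median and, added after seeing the data, leaving out equal values. Software was matplotlib 3.10.9, statsmodels 0.14.6, SciPy 1.17.1, pandas 2.3.3, NumPy 2.4.6 and Python 3.11.15.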

Additional observations from a re-analysis of the deposited data

How the results depend on the processing

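No paired analysis was possible because each group holds 1 array. A median was taken to have moved where it shifted by more than 0.19, the SD of a probe set's difference, and a count where it changed by over 1.5 times. That SD is not the spread of a median, so a median that changed sign could count as not moved. Under the other settings the median lay between -0.10 and 0.04 for elongation and desaturation. It lay between -0.11 and 0.04 for glycerolipid assembly, and between -0.03 and 0.02 for all kept genes. The 6 members kept their sign under loess correction and repeated quantile normalization; the level filters leave a difference as it is, averaging probe sets acts on SCD alone, and centring shifts all by 0.01. SCD fell under 1.5-fold with the mean of its probe sets (0.54) and with repeated quantile normalization (0.54), which left 1 member higher in each; at 2-fold it was also 1. All kept genes higher and lower numbered 294 and 83 of 7442 as reported. They numbered 560 and 421 of 14884 with no level filter, and 137 and 30 of 3721 with the 75th percentile filter. Of the 7442, they numbered 71 and 6 at 2-fold, and 1005 and 616 at the looser size. The level filters change the number of genes, so a moved count there is not by itself a moved share. The median of the SREBP regulators was 0.46 under the 75th percentile filter. After loess correction 1 uptake and activation gene was higher. At 2-fold the supply list had 0 higher and sterol synthesis 2. At the looser size, higher genes numbered 1 in elongation and desaturation, 1 in uptake and activation, 2 in glycerolipid assembly, 3 among SREBP regulators, 2 among other regulators, 10 in sterol synthesis and 1 in lysine acetylation; lower genes numbered 1 in the carboxylation list, 2 in elongation and desaturation, 2 in glycerolipid assembly, 2 in oxidation and 1 among SREBP regulators. The other 272 list, member and gene count or median values did not move. Each is a result under a setting, and many could not move. Centring shifts a median by only 0.01, and averaging acts only on genes with several probe sets. Leaving out equal values cannot change a count past 1.5-fold, and the 2-fold size cannot change a count of 0. The 272 are therefore not a measure of how robust the results are. The stricter filter removed FADS1. The mean for SCD takes in its dimmer probe set, whose difference was 0.46. The cause of SCD's shift under repeated quantile normalization was not tested. With 1 array per group, no setting replaces a replicate.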

Other observations

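HSD17B7, a sterol synthesis gene chosen here because of its values, read 4.96 in the compressed and 3.42 in the uncompressed culture, with a mean below the level floor, which kept it out of the counts above, and no fold is given. The 3 kept protein-coding genes nearest to ACSS2 in level over the 2 arrays were CAPRIN2 (7.55 in the compressed and 6.30 in the uncompressed culture), KPNA7 (7.77 compressed, 6.55 uncompressed) and INO80D (7.37 compressed, 6.48 uncompressed). With 2 arrays this is nearness in signal of different probe sets, not a shared pattern.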
